A study of Mus musculus with 2 samples.

Results

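The genes described here are 8 Toll-like receptors (Tlr1, Tlr2, Tlr3, Tlr4, Tlr6, Tlr7, Tlr9 and Tlr13) and 2 proteins that serve them, the signalling adaptor Myd88 and the trafficking chaperone Unc93b1. They were taken by symbol from both count matrices, which listed all 10 of them among 27998 genes. Healing skin of 2 groups was measured by droplet single-cell RNA sequencing, with 1 library per group. Both groups were wild-type (WT) male C57BL/6J mice with a circular dorsal wound 1.8 cm across, a large wound (LW). In WT_LW the wound received PBS, and in TLR9agonist_LW it received the synthetic CpG oligodeoxynucleotide ODN2395, a ligand of TLR9, each on days 0, 3 and 6. PBS is the control of the labels, but a legend of the study names a control oligodeoxynucleotide for WT_LW, and the files do not settle which of them the ratios are set against. The skin at the wound centre was collected 2 days after the scab came off. Epidermis and dermis were separated by enzymes, dissociated and recombined, dead cells were removed, and cells from several mice were pooled in each library. The samples therefore show which cells carried the transcripts after healing, well after the last application, and not the first response to the oligodeoxynucleotide.

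Toll-like receptors are membrane proteins that bind molecules typical of microbes or of damaged cells. TLR1, TLR2, TLR4 and TLR6 sit at the cell surface, where TLR2 pairs with TLR1 or TLR6 to bind lipoproteins and TLR4 binds lipopolysaccharide. TLR3, TLR7, TLR9 and TLR13 sit in endosomes and bind nucleic acids, which are double-stranded RNA for TLR3, single-stranded RNA for TLR7, unmethylated CpG DNA for TLR9 and bacterial ribosomal RNA for TLR13. The nucleic acid receptors leave the endoplasmic reticulum with the help of UNC93B1, and TLR9 is cut by endosomal proteases before it signals. All of the 8 receptors except TLR3 signal through MYD88 to NF-kB and, in some cells, to interferon regulatory factors. In mouse skin the receptors are best known in macrophages, dendritic cells and neutrophils, and Tlr9 in plasmacytoid dendritic cells and B cells as well.

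Gene positions were taken from the GENCODE annotation of the mouse build GRCm38, joined by Ensembl identifier. Tlr9 lies on the plus strand at chr9:106222598-106226883 with 1 transcript, and no other annotated gene overlapped its exons. The other endosomal receptors were Tlr3 (chr8:45395665-45411080, minus strand), Tlr7 (chrX:167304929-167330558, minus strand) and Tlr13 (chrX:106143204-106160493, plus strand). The surface receptors were Tlr1 (chr5:64924679-64933563, minus strand), Tlr2 (chr3:83836272-83841767, minus strand), Tlr4 (chr4:66827584-66930284, plus strand) and Tlr6 (chr5:64952031-64960097, minus strand). Myd88 lies at chr9:119335934-119341411 on the minus strand and Unc93b1 at chr19:3935186-3949340 on the plus strand. The exons of Myd88 shared 290 bases (11.3%) with the antisense gene Acaa1a, and those of Tlr3 shared 381 bases (7.32%) with the antisense gene Gm45542, which the matrices did not list. In the last 500 bases of their transcripts, where these libraries were read, Tlr1 shared 4.61% of its 60-base words with other genes and the other 9 members shared none.

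The sequences just upstream of Tlr9 and Tlr13 are shown because their transcripts were largely held by 1 cell class and their levels within macrophages were higher in TLR9agonist_LW. They are RefSeq promoter sequences on GRCm38.p6, written 5′ to 3′ on the plus strand, and capitals mark the motif matches. The Tlr9 sequence covers chr9:106222348-106222597, and the Tlr13 sequence covers chrX:106143025-106143203.
Tlr9: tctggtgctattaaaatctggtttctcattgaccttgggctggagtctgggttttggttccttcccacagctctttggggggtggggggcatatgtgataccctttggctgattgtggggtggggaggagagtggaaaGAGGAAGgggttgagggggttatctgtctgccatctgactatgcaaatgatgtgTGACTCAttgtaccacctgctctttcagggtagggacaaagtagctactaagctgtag
Tlr13: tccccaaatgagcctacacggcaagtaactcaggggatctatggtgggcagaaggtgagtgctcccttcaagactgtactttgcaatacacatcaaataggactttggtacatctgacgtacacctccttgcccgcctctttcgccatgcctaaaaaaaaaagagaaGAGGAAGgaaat
The letters GAGGAAG, the core of sites bound by the myeloid factor PU.1, were found 112 bases before the start of Tlr9 and 83 bases before the RefSeq start of Tlr13. The letters TGANTCA, the core of AP-1 sites, were found as TGACTCA 58 bases before the start of Tlr9. Both strands were searched in the 250 bases before each start, and 7 of the 10 members had a sequence, in 9 windows. Among the other members, GAGGAAG occurred before 1 start of Tlr1 (23 bases), the interferon-stimulated response element before Myd88 (40 bases) and, in overlapping copies, before 1 start of Tlr6 (116 and 110 bases), and an NF-kB motif before Tlr3 (211 bases). Of 32851 such windows in the genome, 10.6% held GAGGAAG, 6.75% held TGANTCA, 2.98% held the interferon-stimulated response element and 0.356% held the NF-kB motif. A match describes the letters in the window, and no binding was measured.

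The barcodes deposited as cells held 99374045 unique molecular identifiers (UMIs, counted transcripts) in WT_LW and 132339022 in TLR9agonist_LW. After filtering and removal of predicted doublets, 10395 and 11811 cells were used, with medians of 5519 and 6080 UMIs. The libraries shared 47 barcodes. Cells were assigned one by one to types from 189 marker genes, none of them among the 10 genes described. Of 14 types, 9 held at least 50 cells in each library. Mononuclear phagocytes (macrophages, monocytes and dendritic cells, gated on Csf1r, Cd68, Spi1, Cybb and 9 other markers) made up 1910 cells (18.4%) of WT_LW and 1403 (11.9%) of TLR9agonist_LW. They had a median of 10 and 9 of their 13 markers detected, and 5.81% and 9.76% of them lay near the limit of the gate. B cells numbered 1 and 0 and plasmacytoid dendritic cells 5 and 6, so 2 types best known for Tlr9 were nearly absent. Cells were also clustered on variable genes, with the members and other genes of their pathway left out. There, 4 T cell clusters came nearly wholly from 1 library. In addition, 1 unnamed cluster was led by Lars2, AY036118, Gm42418 and Gm26917. It held 651 cells of TLR9agonist_LW and 8 of WT_LW, at medians of 755 and 726 UMIs. This cluster included 101 phagocytes of TLR9agonist_LW. Levels are given as CPM, the UMIs of a gene scaled to the UMIs of all genes in the same cells. Intervals are exact 95% intervals (Poisson for CPM, Clopper-Pearson for shares, conditional on the total for ratios) and cover counting error only. With 1 library per group no difference between the groups could be tested, and differences between the mice pooled or the preparations cannot be told apart from the treatment. Transcripts were read from their 3′ ends, so levels were compared between cells and libraries for the same gene and not between genes.

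Tlr9 transcripts were rare and were held mainly by mononuclear phagocytes. Over all cells, 32 UMIs of Tlr9 were counted in WT_LW and 32 in TLR9agonist_LW, which is 0.37 and 0.29 CPM. Of these, 30 of 32 (93.8%, 79.2 to 99.2) and 28 of 32 (87.5%, 71.0 to 96.5) lay in phagocytes, which held 23.1% and 11.5% of all UMIs. No cell carried more than 2 UMIs of Tlr9. The phagocyte level was 1.52 CPM (1.02 to 2.16) in WT_LW and 2.19 CPM (1.45 to 3.16) in TLR9agonist_LW. The log2 ratio of TLR9agonist_LW over WT_LW was 0.53 with an interval of -0.27 to 1.32, so a difference in phagocytes was not detectable at this depth. Over all cells the log2 ratio was -0.38 (-1.13 to 0.38), and 0.01 relative to the median gene. The median gene has the middle log2 ratio of genes with at least 200 UMIs in the same cells, libraries summed, and some in each.

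Outside phagocytes, single UMIs of Tlr9 were spread over a few cells. The 2 further UMIs of WT_LW were in 1 T cell and 1 cell without a type, and the 4 of TLR9agonist_LW were in 1 fibroblast, 1 plasmacytoid dendritic cell of 6, and 2 UMIs in cells without a type. The plasmacytoid dendritic cells are too few for a level, since that 1 UMI is 19.2 CPM. A UMI of Tlr9 was found in 29 of 1910 phagocytes (1.52%) of WT_LW and 25 of 1403 (1.78%) of TLR9agonist_LW. In T cells, the largest class and one expected to hold little Tlr9, it was found in 1 of 3402 cells (0.0294%) and 0 of 3539, which allows a share of cells with a UMI of up to 0.0848%. Most cells that express so rare a transcript carry no UMI of it, so this does not limit the share of cells that express Tlr9. Median depths were 9572.5 and 8479 UMIs in phagocytes and 4284 and 4575 in T cells. With every cell thinned to 1500 UMIs, the shares of phagocytes with Tlr9 were 0.218% and 0.532%, too few to compare. No UMI was counted in keratinocytes, which, with 3 counts as the limit that a count of 0 allows, leaves up to 0.30 CPM in WT_LW and 0.10 in TLR9agonist_LW, nor in blood endothelial cells (up to 0.62 and 0.74), Schwann cells (up to 0.52 and 0.93) or pericytes and smooth muscle cells (up to 0.66 and 1.02). The gammadelta T17 gate (γδT17, interleukin-17-type T cells, 589 and 1035 cells) also held none, which allows up to 1.08 and 0.62 CPM by the same limit. For mast cells (up to 4.72 and 3.32 CPM), lymphatic endothelial cells (up to 6.63 and 4.79 CPM) and neutrophils (up to 33.3 and 6.86 CPM) the count of 0 sets only a loose limit.

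**Figure D1:**
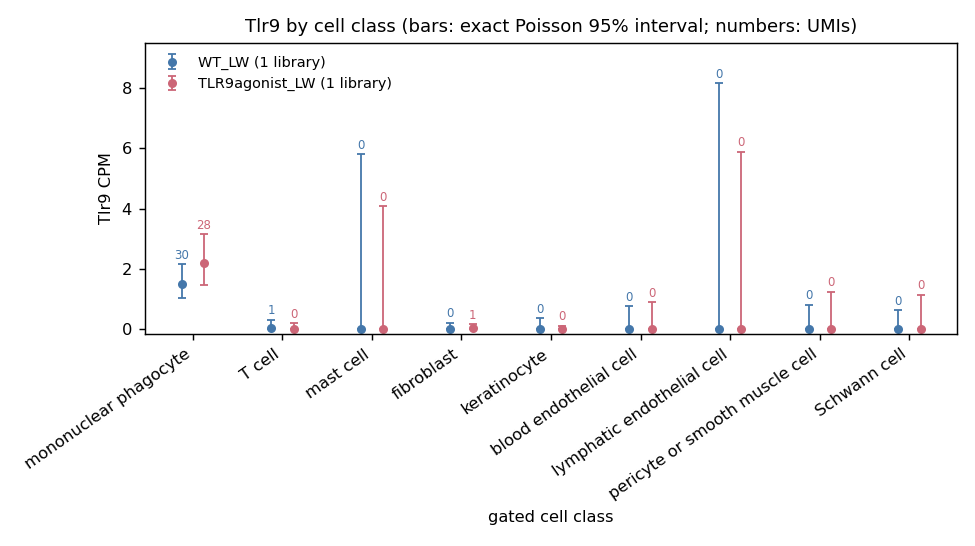
Tlr9 level (CPM, vertical axis) in each of 9 gated cell classes (horizontal axis), with 1 point per library, exact Poisson 95% intervals as bars and UMI counts above them. Phagocytes carry 30 and 28 UMIs, and the other 8 classes 0 or 1, with wide upper limits where few UMIs were read (mast cells and lymphatic endothelial cells).

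Of the phagocyte subsets, macrophages held 14 of the 30 UMIs of Tlr9 in WT_LW and 21 of 28 in TLR9agonist_LW. The macrophage gate held 878 and 737 cells with 1.68 CPM (0.92 to 2.82) in WT_LW and 3.57 CPM (2.21 to 5.45) in TLR9agonist_LW, a log2 ratio of 1.08 (0.04 to 2.17). Phagocytes that passed no narrower gate held 10 and 3 UMIs, or 2.17 and 1.09 CPM. Monocytes held 2 and 1 UMIs, Langerhans cells (the dendritic cells of the epidermis) 2 and 2, Cd209a dendritic cells 1 and 1, and migratory dendritic cells 1 and 0. Type 1 dendritic cells, which take up dead cells, held none among 51 and 42 cells, which allows up to 3.82 and 5.21 CPM. The higher macrophage level of TLR9agonist_LW therefore rests on 35 UMIs in all, and the levels of the other subsets cannot be ordered.

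Unc93b1, the chaperone, was looked for in the cells that carried Tlr9. It was detected in 23 of 29 Tlr9-positive phagocytes of WT_LW (79.3%) and 17 of 25 of TLR9agonist_LW (68.0%), against 70.3% and 65.7% of the phagocytes without a Tlr9 UMI. In macrophages it was detected in 14 of 14 and 15 of 19 Tlr9-positive cells, the latter 78.9%, against 87.0% and 81.6% of the other macrophages. Tlr7, the RNA receptor that also depends on UNC93B1, was detected in 17.2% and 32% of Tlr9-positive phagocytes and in 13.0% and 13.4% of the others. These shares of 25 and 29 cells are descriptions, and a UMI can be missed in any of these cells.

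The other members differed in how far phagocytes held them. Phagocytes held 86.6% and 90.5% of the Tlr7 UMIs in WT_LW and TLR9agonist_LW, and 77.8% and 73.4% of those of Tlr13. For Tlr1 the shares were 69.7% and 75.3%, and for Unc93b1 75.9% and 69.4%. Several surface receptors and the adaptor had a smaller phagocyte share in TLR9agonist_LW, where phagocytes were also a smaller part of the cells. The phagocyte share of Tlr2 was 85.0% and 56.6%, that of Tlr6 59.0% and 32.3% (with 66 of its 220 UMIs in TLR9agonist_LW in neutrophils), that of Tlr4 36.1% and 26.9% and that of Myd88 29.2% and 12.1%. Tlr3 was the receptor least tied to phagocytes, which held 13.1% and 14.3% of its UMIs. In these summed libraries a smaller share of cells and a lower level per cell both lower a gene's total, so the levels below are given within classes.

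**Figure D2:**
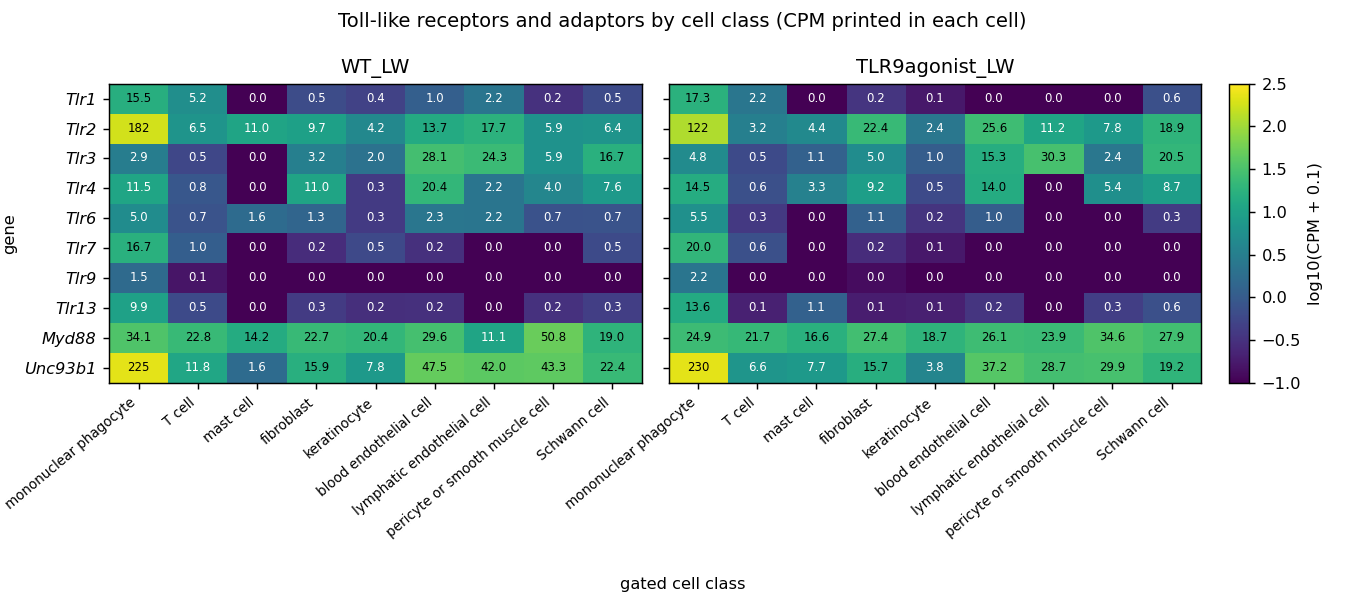
Level of the 10 genes (rows) in 9 gated cell classes (columns) in WT_LW (left) and TLR9agonist_LW (right), with the CPM printed and coloured by log10(CPM + 0.1). Tlr9 and Tlr7 stand out in the phagocyte column, Tlr3 is highest in endothelial and Schwann cells, and Myd88 is present in every class.

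Tlr7 and Tlr13 were the members whose pattern over the 9 classes was closest to that of Tlr9. Over the 9 classes, with both libraries summed and levels taken as log2(CPM + 1), Pearson's r with Tlr9 was 0.984 for Tlr7 and 0.982 for Tlr13, and -0.10 for Tlr3. Of 13489 genes compared, the 5 with the highest r were Clec9a (0.998), Tlr8 (0.998), Adgre4 (0.998), Tm4sf5 (0.997) and B430306N03Rik (0.997). Each of these 5 lay between 5.64 and 7.42 CPM in phagocytes and at most at 0.22 CPM in any other of the 9 classes. The 9 points share 2 libraries, and 1 of them, the phagocytes, sets the correlation. Clec9a marks type 1 dendritic cells, where no Tlr9 UMI was counted, a count of 0 that still allows a level above that of phagocytes as a whole.

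In phagocytes Tlr3, Tlr7 and Tlr13 had intervals of the ratio above 0, Tlr9 had one that included 0, and Tlr2 lay lower in TLR9agonist_LW. The median gene of phagocytes had a log2 ratio of -0.27, so log2 ratios are also given relative to it. Tlr3 had 58 and 61 UMIs, or 2.93 CPM (2.22 to 3.79) in WT_LW and 4.76 CPM (3.64 to 6.12) in TLR9agonist_LW, a log2 ratio of 0.70 (0.16 to 1.245). It turned to -0.98 (-3.09 to 0.78) when each cell was thinned to 1500 UMIs, where few of its UMIs were left. Tlr13 had 196 and 174 UMIs, or 9.90 CPM (8.56 to 11.4) and 13.6 CPM (11.6 to 15.8), a log2 ratio of 0.46 (0.15 to 0.76). Tlr7 had 330 and 256 UMIs, or 16.7 CPM (14.9 to 18.6) and 19.99 CPM (17.6 to 22.6), a log2 ratio of 0.26 (0.02 to 0.50). For Tlr7 the interval reached 0 under the stricter cell filter (-0.00 to 0.49), with clusters in place of gates (-0.07 to 0.41) and without the cells of 2 unnamed clusters that came nearly wholly from 1 library (-0.01 to 0.47). With thinned cells the intervals of all 3 included 0 (-0.16 to 1.30 for Tlr13 and -0.39 to 0.88 for Tlr7). Relative to the median gene the ratios of Tlr3, Tlr13 and Tlr7 were 0.97, 0.72 and 0.53, against 0.79 (-0.00 to 1.59) for Tlr9. The chaperone Unc93b1 was at 225 CPM (218 to 231) and 230 CPM (221 to 238), a log2 ratio of 0.03 (-0.04 to 0.10), which is 0.30 (0.23 to 0.36) relative to the median gene.

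Of the surface receptors, Tlr2 lay the other way. It had 3608 and 1561 UMIs, or 182 CPM (176 to 188) in WT_LW and 122 CPM (116 to 128) in TLR9agonist_LW, a log2 ratio of -0.58 (-0.67 to -0.49) and -0.32 (-0.40 to -0.23) relative to the median gene. It was detected in 54.9% and 42.8% of phagocytes, and in 19.9% and 15.3% after thinning to 1500 UMIs. The intervals of its partners included 0. Tlr1 was at 15.5 and 17.3 CPM with a log2 ratio of 0.17 (-0.09 to 0.42), and Tlr6 at 4.95 and 5.54 CPM with a log2 ratio of 0.16 (-0.30 to 0.62). Tlr4, the lipopolysaccharide receptor, had 11.5 and 14.5 CPM (log2 ratio 0.34, 0.05 to 0.63, and -0.07 to 1.57 with thinned cells).

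Myd88, the adaptor of all these receptors but TLR3, was at 34.1 CPM (31.6 to 36.8) and 24.9 CPM (22.3 to 27.8) in phagocytes, a log2 ratio of -0.45 (-0.65 to -0.26). Relative to the median gene its ratio was -0.19 (-0.38 to 0.01), an interval that reaches 0, as it did with thinned cells (-0.92 to 0.09). With a limit of 1.5-fold and at least 50 UMIs in the class, 1 of the 10 members (Tlr3) was higher in TLR9agonist_LW and 0 were lower. Of all 11236 genes counted by the same rule in phagocytes, 6.88% were higher and 19.7% lower. The ratio of Tlr2 lay just inside the limit, at 0.669-fold. The median log2 ratio of the 10 members was 0.21, against -0.26 for all genes counted.

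**Figure D3:**
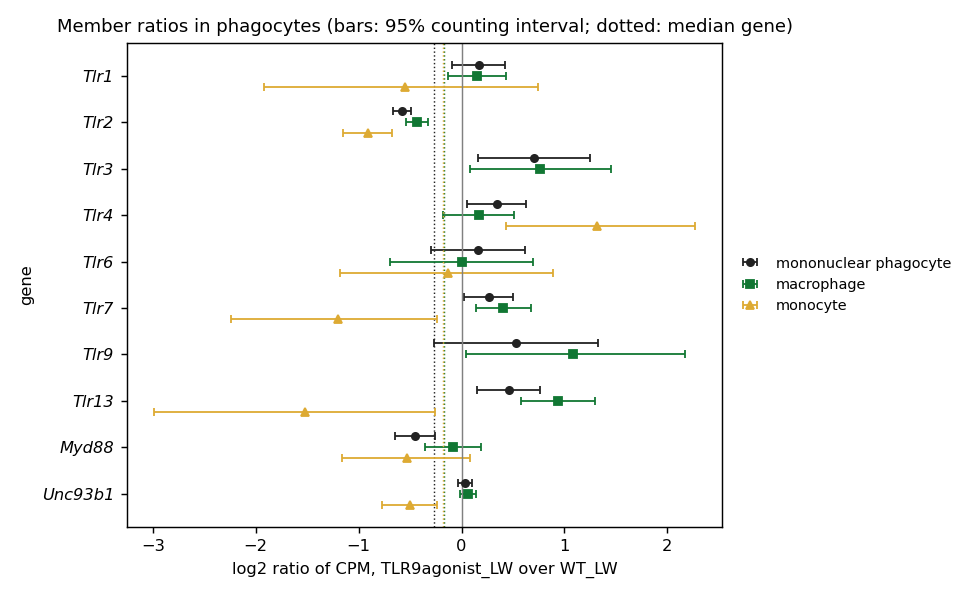
Log2 ratio of CPM, TLR9agonist_LW over WT_LW (horizontal axis), of each gene in all phagocytes, macrophages and monocytes, with exact 95% counting intervals as bars and the median gene of each class as dotted lines; ratios with fewer than 20 UMIs in both libraries together are not drawn. Tlr2 lies below 0 in all 3 classes, and Tlr7 and Tlr13 lie above 0 in macrophages and below 0 in monocytes.

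Within phagocytes the subsets differed in which way the receptors lay. Macrophages of WT_LW carried Tlr13 at 13.8 CPM and those of TLR9agonist_LW at 26.5 CPM, a log2 ratio of 0.94 (0.58 to 1.30). Tlr7 was at 29.1 and 38.5 CPM (0.41, 0.14 to 0.67) and Tlr3 at 4.21 and 7.13 CPM (0.76, 0.08 to 1.45). Macrophage Tlr2 was at 238 and 176 CPM (-0.43, -0.54 to -0.32). Unc93b1 was at 369 and 385 CPM (0.06, -0.02 to 0.14), Myd88 at 34.6 and 32.8 CPM (-0.08, -0.35 to 0.19), Tlr1 at 29.0 and 32.3 CPM and Tlr4 at 19.4 and 21.7 CPM. Macrophages thus carried more Tlr9, Tlr13, Tlr7 and Tlr3 and less Tlr2 per UMI in TLR9agonist_LW, with little difference in the shared chaperone and adaptor.

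Monocytes, gated apart from macrophages in 175 and 155 cells, showed another order. Of these monocytes, 97.7% and 94.8% lay in a cluster that also held 48.3% and 22.5% of the macrophages (the Arg1 cluster, described below). Macrophages of that cluster lay lower in Tlr2 and Tlr7 in TLR9agonist_LW as well. Monocyte Tlr2 stood at 302 CPM and 160 CPM, with -0.91 as the log2 ratio (-1.15 to -0.68). Tlr7 was at 21.7 and 9.46 CPM from 34 and 13 UMIs (-1.20, -2.24 to -0.24), and Tlr13 at 14.7 and 5.09 CPM from 23 and 7 UMIs (-1.53, -2.99 to -0.26). Unc93b1 was at 194 and 137 CPM (-0.50, -0.77 to -0.24). Tlr4 alone of the members lay higher in the monocytes of TLR9agonist_LW with an interval above 0, at 10.2 and 25.5 CPM from 16 and 35 UMIs (1.32, 0.43 to 2.27). The phagocytes that passed no narrower gate lay lower in Tlr2 (187 and 87.9 CPM), Tlr13 (10.8 and 3.98 CPM), Tlr7 (11.3 and 5.07 CPM), Myd88 (29.9 and 14.5 CPM) and Unc93b1 (157 and 110 CPM).

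Cd209a dendritic cells and Langerhans cells had less Tlr2 than macrophages, and less of it in TLR9agonist_LW. Cd209a dendritic cells had 62.9 and 21.9 CPM of Tlr2 from 141 and 23 UMIs (-1.52, -2.22 to -0.88), and 43.7 and 18.1 CPM of Myd88 (-1.27, -2.06 to -0.55). Langerhans cells had 68.9 and 38.3 CPM of Tlr2 (-0.85, -1.51 to -0.23). Type 1 dendritic cells carried the double-stranded RNA receptor Tlr3 at 15.3 and 26.1 CPM from 12 and 15 UMIs (0.77, -0.42 to 2.00) and Unc93b1 at 169 and 125 CPM (-0.43, -0.87 to -0.01).

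The macrophages of the 2 libraries were not the same mix of cells. A cluster led by F10, Arg1, Chil3 and Mmp12 held 48.3% of macrophages in WT_LW (424 cells) and 22.5% in TLR9agonist_LW (166 cells). F10 and Chil3 were monocyte markers of the gate and Mmp12 a macrophage marker. The same cluster held 97.7% and 94.8% of the monocytes, and 72.3% and 54.7% of the phagocytes of no narrower gate. A cluster led by Ms4a7, Fcrls, Ccl12 and the complement genes C1qa, C1qb and C1qc held 44.4% of macrophages in WT_LW (390 cells) and 63.9% in TLR9agonist_LW (471 cells). The unnamed cluster held 0.114% and 11.1% (1 and 82 cells). In each library the levels of Tlr9, Tlr7 and Tlr13 were higher in the C1q cluster than in the Arg1 cluster, with overlapping intervals for Tlr9 and, in WT_LW, for Tlr13. Tlr9 was at 0.92 and 1.598 CPM in the Arg1 cluster (4 and 3 UMIs) and at 2.77 and 4.85 CPM in the C1q cluster (10 and 18 UMIs), with intervals of the Tlr9 ratio that reach from below to above 0 in each.

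The C1q cluster of WT_LW carried 17.7 CPM of Tlr13 and that of TLR9agonist_LW 35.3 CPM, a log2 ratio of 0.99 (0.55 to 1.44). Tlr7 was at 44.4 and 54.4 CPM (0.29, -0.01 to 0.60), and Tlr2, with 565 and 743 UMIs, was at 157 CPM in WT_LW and higher in TLR9agonist_LW (0.35, 0.19 to 0.51). Within the Arg1 cluster the same genes lay lower in TLR9agonist_LW or did not separate. Tlr2 was at 311 and 140 CPM there (-1.15, -1.35 to -0.96), Tlr7 at 18.1 and 6.39 CPM (-1.50, -2.52 to -0.62), and Tlr13 at 10.8 and 7.99 CPM (-0.43, -1.38 to 0.43). Tlr4 was at 15.6 and 7.99 CPM from 68 and 15 UMIs (-0.97, -1.88 to -0.14), and -0.71 (-1.63 to 0.11) relative to the median gene. In the monocytes, nearly all of this cluster, Tlr4 lay the other way. Tlr2 thus lay higher in TLR9agonist_LW in the macrophages of the C1q cluster and lower in those of the Arg1 cluster. The 2 intervals do not meet, and this difference between clusters was not tested over mice.

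When both libraries were given the cluster mix of WT_LW over these 2 clusters, the macrophage log2 ratio of Tlr9 was 0.80, that of Tlr13 0.55, that of Tlr3 0.43 and that of Tlr2 -0.53. The ratio of Tlr7 was then -0.09, against 0.41 for macrophages as gated, so the direction of Tlr7 changed with the mix of the clusters. The ratio of Unc93b1 was -0.18 and that of Myd88 -0.26. Without the cells of 2 unnamed clusters that came nearly wholly from 1 library, the macrophage ratios of Tlr9 (1.11) and Tlr13 (0.93) and the phagocyte ratio of Tlr2 (-0.58) were nearly as before. The clusters were built on variable genes, with the members and other genes of their pathway left out. The members' levels in them are a description of the cells clustered.

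**Figure D4:**
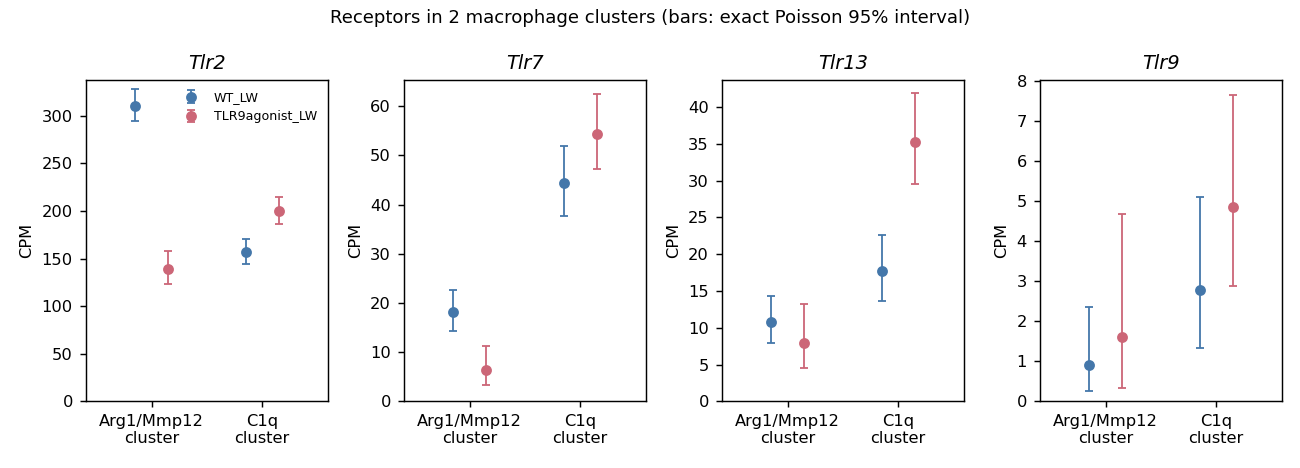
Level (CPM, each panel with its own axis from 0) of Tlr2, Tlr7, Tlr13 and Tlr9 in the macrophages of the Arg1/Mmp12 cluster and the C1q cluster, with 1 point per library and exact Poisson 95% intervals. Tlr2 lies at 311 and 140 in the first and is higher in TLR9agonist_LW in the second (log2 ratio 0.35), and Tlr13 separates the libraries in the C1q cluster alone (17.7 and 35.3).

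Outside phagocytes, Tlr2 lay higher in TLR9agonist_LW in 3 stromal classes. In fibroblasts it was at 9.71 CPM (8.27 to 11.3) from 160 UMIs in WT_LW and 22.4 CPM (20.9 to 24.1) from 743 UMIs in TLR9agonist_LW, a log2 ratio of 1.21 (0.96 to 1.46). In blood endothelial cells it was at 13.7 and 25.6 CPM (0.90, 0.44 to 1.36), and in Schwann cells, the glia of skin nerves, at 6.39 and 18.9 CPM (1.57, 0.95 to 2.20). Fibroblasts held 3.77% of all Tlr2 UMIs in WT_LW and 27.0% in TLR9agonist_LW, where they also made up 21.0% of the cells against 9.76%. It was detected in 11.5% and 18.7% of fibroblasts at median depths of 15877 and 12732 UMIs, and in 1.69% and 3.75% after thinning to 1500 UMIs.

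Tlr2 levels outside phagocytes are given here as a share of the phagocyte level, beside the same share of 10 macrophage markers. The Tlr2 level of fibroblasts was 5.33% of that of phagocytes in WT_LW and 18.4% in TLR9agonist_LW, while 10 macrophage markers had medians of 1.52% and 0.967% there. In blood endothelial cells Tlr2 stood at 7.54% and 21.0% of its phagocyte level, with marker medians of 1.81% and 1.02%, and in Schwann cells at 3.50% and 15.5%, with marker medians of 1.89% and 1.30%. All 13 phagocyte gating markers had UMIs in fibroblasts, endothelial cells and Schwann cells, and their summed level was 241 and 154 CPM in fibroblasts, 391 and 526 CPM in blood endothelial cells and 243 and 148 CPM in Schwann cells, against 19300.2 and 17486 CPM in phagocytes. The 10 macrophage markers ranged up to 49.0% and 30.6% of their phagocyte level in fibroblasts and up to 16.0% and 17.5% in Schwann cells, so Tlr2 lay above their median but within their range in both classes. In blood endothelial cells they ranged up to 7.65% and 5.33%, so Tlr2 lay within the range in WT_LW and above it in TLR9agonist_LW. The markers thus did not share a single level within a class. The part of free RNA or of phagocytes left in these gates in the Tlr2 levels was not tested.

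The fibroblasts of the libraries fell into different clusters. A cluster led by Omd, Lgr5 and Wisp2 held 9.36% of fibroblasts in WT_LW and 60.4% in TLR9agonist_LW, and a cluster led by Thbs4, Tnxb and Igfbp6 held 40.6% and 2.22%. Tlr2 was at 9.52 and 24.5 CPM in the first (1.37, 0.63 to 2.21) and at 10.0 and 12.1 CPM in the second (0.27, -0.69 to 1.12). In another, led by Crabp1, Tnn and Prss35, with 29.7% and 32.9% of fibroblasts, it was at 7.32 and 17.8 CPM (1.28, 0.75 to 1.85). Other fibroblasts lay in clusters of 1 library. A cluster named Schwann cell by its markers held 13.7% of those of WT_LW, with Tlr2 at 22.6 CPM from 8 UMIs. The unnamed cluster held 3.27% of those of TLR9agonist_LW, with Tlr2 at 48.7 CPM from 4 UMIs. The higher Tlr2 of fibroblasts in TLR9agonist_LW was seen with an interval above 0 in 2 of the 3 clusters compared. Of these 2, 1 held a like share of the class in both libraries.

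**Figure D5:**
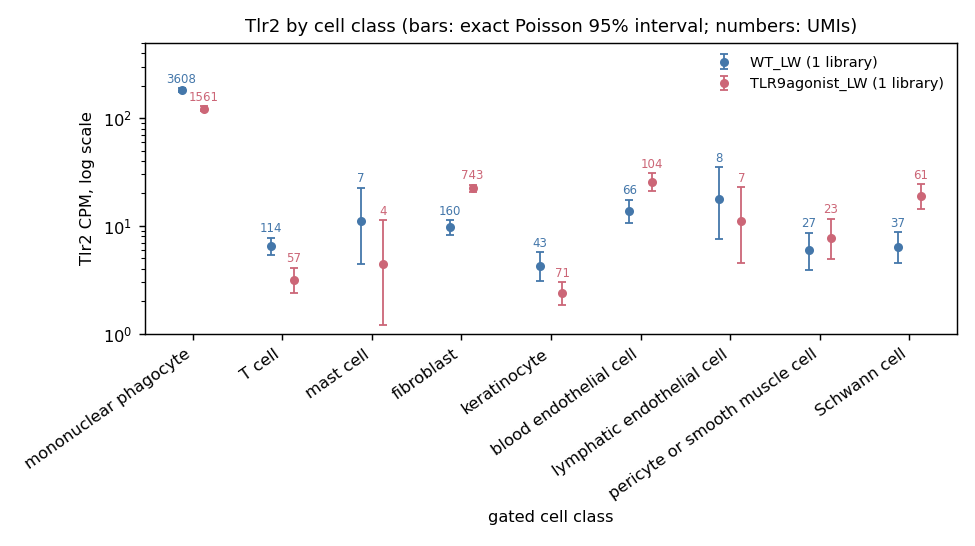
Tlr2 level (CPM, log scale on the vertical axis) in 9 gated cell classes (horizontal axis), with 1 point per library, exact Poisson 95% intervals as bars and UMI counts above them. The WT_LW point lies above that of TLR9agonist_LW in phagocytes (182 and 122) and T cells (6.46 and 3.18) and below it in fibroblasts (9.71 and 22.4), blood endothelial cells (13.7 and 25.6) and Schwann cells (6.39 and 18.9).

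Ordered by level in WT_LW, Tlr2 was highest in phagocytes among the 9 classes, and their interval met that of none of the other 8. Neutrophils, too few for that order, had 12 and 34 UMIs, or 133 and 77.7 CPM. Lymphatic endothelial cells (17.7 CPM), blood endothelial cells, mast cells (11.0 CPM) and fibroblasts followed with intervals that overlapped from one to the next, and T cells, Schwann cells, pericytes and smooth muscle cells (5.94 CPM) and keratinocytes (4.25 CPM) came last, again overlapping. In TLR9agonist_LW phagocytes again stood apart, and blood endothelial cells, fibroblasts and Schwann cells came next with overlapping intervals. By the 1.5-fold rule 2 members were higher and 0 lower in fibroblasts among the 6 with at least 50 UMIs, where 7.69% of all genes counted were higher and 24.5% lower. The 2 were Tlr2 and Tlr3, the latter at 3.16 and 5.01 CPM (0.67, 0.21 to 1.15). Myd88 lay at 22.7 and 27.4 CPM in fibroblasts (0.27, 0.09 to 0.45) and at 19.0 and 27.9 CPM in Schwann cells (0.55, 0.14 to 0.97), below the limit of the rule in each.

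Tlr3, the double-stranded RNA receptor, had its highest levels among the 9 classes in endothelial and Schwann cells. Fibroblasts, at a lower level but in larger number, held 11.7% of its UMIs in WT_LW and 38.8% in TLR9agonist_LW. In WT_LW its levels were 28.1 CPM in blood endothelial cells, 24.3 CPM in lymphatic endothelial cells (11 UMIs) and 16.7 CPM in Schwann cells, with overlapping intervals between neighbours, and the Schwann cell interval did not meet that of the next class, pericytes and smooth muscle cells at 5.94 CPM. In TLR9agonist_LW the order was lymphatic endothelial cells (30.3 CPM, 19 UMIs), Schwann cells (20.5 CPM) and blood endothelial cells (15.3 CPM). Only in blood endothelial cells did the interval of its ratio leave 0 among these 3 classes, from 135 and 62 UMIs with a log2 ratio of -0.88 (-1.34 to -0.44). Relative to the median gene of that class, whose ratio was -0.36, it was -0.52 (-0.98 to -0.08). In Schwann cells the ratio was 0.29 (-0.18 to 0.75).

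Endothelial cells differed in the direction of their receptors. Of the 5 members with at least 50 UMIs in blood endothelial cells, 1 (Tlr2) was at least 1.5-fold higher and 1 (Tlr3) at least 1.5-fold lower, where 6.93% of all genes counted were higher and 40.8% lower. Tlr4 was at 20.4 and 14.0 CPM there (-0.54, -1.04 to -0.06) and Unc93b1 at 47.5 and 37.2 CPM (-0.35, -0.66 to -0.05), ratios that were -0.18 and 0.00 relative to the median gene, with intervals that reach 0. Myd88 was at 29.6 and 26.1 CPM (-0.18, -0.56 to 0.19). Tlr4 was also carried by fibroblasts, at 11.0 and 9.18 CPM (-0.27, -0.54 to 0.01), which is 0.01 relative to the median gene. Among the 9 classes Myd88 was highest in pericytes and smooth muscle cells, at 50.8 and 34.6 CPM. Its log2 ratio there was -0.55 (-0.90 to -0.21), and -0.22 relative to the median gene. In TLR9agonist_LW the interval of that level (28.2 to 42.0) overlapped that of the next class, Schwann cells (22.4 to 34.3). Of these pericytes and smooth muscle cells, 23.3% and 27.1% lay near the limit of the gate.

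T cells carried little of the receptors. Their Tlr1 level was 5.22 CPM and 2.23 CPM (-1.23, -1.80 to -0.68), or 33.7% and 12.9% of its phagocyte level, where 10 macrophage markers had medians of 2.52% and 1.49%. Its level was 11.4 and 6.17 CPM in the regulatory T cell gate, from 46 and 18 UMIs. Tlr2 was at 6.46 and 3.18 CPM in T cells, which is 3.55% and 2.61% of its phagocyte level and within the range of the macrophage markers there (1.06% to 6.45% in WT_LW and 1.04% to 6.07% in TLR9agonist_LW). The part of free RNA in it was not tested. Unc93b1 was at 11.8 and 6.64 CPM (-0.84, -1.17 to -0.50), which is 5.27% and 2.89% of its phagocyte level and within the same marker range. The part of free RNA in that level was not tested either. Myd88 was at 22.8 and 21.7 CPM (-0.07, -0.28 to 0.13). Of 4 members with at least 50 UMIs, 0 were higher and 3 (Tlr1, Tlr2 and Unc93b1) lower past 1.5-fold, where 8.6% of all genes counted were higher and 30% lower. Different clusters held the T cells of the 2 libraries. Clusters led by Cd28 and Cd4 and by Blk and Cd163l1 held those of WT_LW, and clusters led by Il17a and Il17f and by Ermn and Cd40lg held those of TLR9agonist_LW, so these T cell values compare different cells.

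Keratinocytes carried little of the receptors in either library. Unc93b1 was at 7.81 CPM in WT_LW and at 3.82 CPM in TLR9agonist_LW (-1.03, -1.46 to -0.60, and -0.60 relative to the median gene). Tlr2 was at 4.25 and 2.38 CPM (-0.84, -1.40 to -0.26), Tlr3 at 1.98 and 0.97 CPM (-1.02, -1.90 to -0.13) and Tlr7 at 0.49 and 0.07 CPM from 5 and 2 UMIs, and relative to the median gene, whose ratio was -0.44, these 3 intervals reached 0. Keratinocyte Myd88 was at 20.4 and 18.7 CPM (-0.12, -0.36 to 0.11), but 0.31 (0.08 to 0.55) relative to the median gene. In pericytes and smooth muscle cells Unc93b1 was at 43.3 and 29.9 CPM (-0.54, -0.92 to -0.17) and Tlr3 at 5.94 and 2.38 CPM from 27 and 7 UMIs (-1.32, -2.77 to -0.09), and again neither interval left 0 relative to the median gene. The γδT17 gate carried Unc93b1 at 17.6 and 5.82 CPM from 49 and 28 UMIs (-1.60, -2.33 to -0.90), Tlr2 at 7.92 and 3.33 CPM (-1.25, -2.28 to -0.26) and Myd88 at 28.4 and 21.4 CPM (-0.41, -0.85 to 0.03). The part of free RNA in these γδT17 levels was not tested. In mast cells, lymphatic endothelial cells and CD8 T cells no interval of the 10 members left 0.

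The wider pathway was followed in phagocytes with 9 lists of 81 genes, the 10 members among them, of which 78 had at least 50 UMIs. Of these 78, 7 were at least 1.5-fold higher and 6 at least 1.5-fold lower in TLR9agonist_LW. Of all 11236 genes counted, 6.88% were higher and 19.7% lower. Without the members, 6 of 68 pathway genes were higher and 6 lower. Relative to the median gene, 16 of the 78 were higher and 2 lower. The share of all genes under that scaling was not counted. The median log2 ratio of the 78 was -0.04, and -0.09 without the members, against -0.26 for all genes counted. The endosomal receptors had a median of 0.53, with 3 of 7 past the limit: Tlr3, Tlr8 at 6.06 and 9.53 CPM (0.65, 0.28 to 1.03) and Tlr11 at 1.16 and 2.19 CPM (0.91, 0.06 to 1.77). None of the 5 surface receptors was past it. In macrophages the ratio of Tlr8 was 0.74 (0.26 to 1.24) in the C1q cluster. In the Arg1 cluster it was -1.74 (-3.70 to -0.24), from 31 UMIs in WT_LW and 4 in TLR9agonist_LW. With the cluster mix of WT_LW in both libraries the macrophage log2 ratio of Tlr8 was 0.26. Of 5 endosomal proteases, 2 were higher, Ctsk at 30.7 and 77.4 CPM (1.34, 1.19 to 1.48) and Ctsl at 315 and 638 CPM (1.02, 0.97 to 1.07), cathepsins of the compartment in which TLR9 is cut. The interferon regulatory factor Irf7, which acts downstream of TLR7 and TLR9, was at 41.7 and 85.5 CPM (1.04, 0.90 to 1.17), and Pik3ap1, an adaptor to the PI3 kinase, at 8.89 and 16.0 CPM (0.85, 0.55 to 1.15).

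Of the 6 genes past the limit in the other direction, 3 were on the list of 16 proximal signalling genes, 2 were other nucleic acid sensors and 1 was a negative regulator. The signalling genes were the kinases Irak1 at 64.1 and 36.2 CPM (-0.82, -0.98 to -0.67) and Irak4 at 24.5 and 14.2 CPM (-0.79, -1.04 to -0.54), which act next to MYD88, and Ikbke at 10.2 and 4.53 CPM (-1.16, -1.61 to -0.74). Tmem173, the STING protein of cytosolic DNA sensing, was at 41.8 and 22.6 CPM (-0.88, -1.08 to -0.69), and Mb21d1, the DNA sensor cGAS, named after its value was seen, at 16.3 and 10.8 CPM (-0.59, -0.89 to -0.30). The phosphatase Dusp1, a brake on MAP kinases, was at 1347 and 785 CPM (-0.78, -0.81 to -0.75). The list of proximal signalling genes had a median of -0.30, close to the -0.26 of all genes counted. The shares of the lists are descriptions, and 3 of 16 is near the 19.7% of all genes that were lower.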

How the data were processed

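Healed skin of 2 libraries, WT_LW and TLR9agonist_LW, was measured by droplet 3′ single-cell RNA sequencing, and groups were taken from the sample labels. Raw, not normalized UMI counts were deposited by the authors for barcodes called as cells by Cell Ranger (4.0.0 in the file headers). The submitters' processing notes name fastp, Cell Ranger, Seurat and mm9. Positions come from GENCODE vM21 (GRCm38) and were not converted.

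Cells under 500 UMIs or 300 genes, or over 15% mitochondrial UMIs, were left out, as were predicted doublets (1048 and 1395 cells, 9.16% and 10.6%). A cell was gated to a type from at least 3 detected markers (2 for subsets) and a score 1.5 times that of the next type, which left 1261 and 1143 cells without a type. Leiden clusters (2000 variable genes less the members and pathway genes, 30 components, 20 neighbours, resolution 1) were named by the same markers. UMIs were summed per class. No test between groups was possible, and the call rule was 1.5-fold with at least 50 UMIs. The gates and ratios were tested on simulated data. The counts drawn for the ratios held counting error only, so they do not cover differences between mice or preparations. Alternatives were a stricter filter, doublets kept, clusters as types, a stricter gate, equal weight per cell, scaling to the median gene, the subset mix of WT_LW, a lower count limit of 10 and, added after the data were seen, cells thinned to 1500 UMIs.

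The rule for named genes took all 10 members in each class with at least 50 cells per library (where they had few UMIs the plot of levels by class alone gives them), at most 12 pathway genes past 1.5-fold in phagocytes (furthest from 0), and the 5 genes most like Tlr9. The named cell clusters were described after their values were seen. The members and lists were chosen with earlier results of these data known. Software: scanpy 1.11.5, leidenalg 0.10.2 and anndata 0.12.19 for the cells, scipy 1.17.1, pandas 2.3.3 and numpy 2.4.6 for the counts, matplotlib 3.10.9 for plots, in Python 3.11.15.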

Additional observations from a re-analysis of the deposited data

Results flagged for a closer look

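Some of the 10 genes lay higher in TLR9agonist_LW in one cell class and lower in another, with counting intervals on opposite sides of 0. With 1 library per group, none of these differences between classes was tested. Tlr2 had log2 ratios of 1.57 in Schwann cells, 1.21 in fibroblasts, 0.90 in blood endothelial cells and 0.35 in macrophages of the C1q cluster, against -0.58 in phagocytes as a whole, -0.43 in macrophages, -0.91 in monocytes, -1.09 in phagocytes of no narrower gate, -1.52 in Cd209a dendritic cells, -0.85 in Langerhans cells, -1.15 in macrophages of the Arg1 cluster and -1.02 in T cells, where its level lay within the range of macrophage markers. Tlr3 had ratios of 0.70 in phagocytes, 0.76 in macrophages and 0.67 in fibroblasts, against -0.88 in blood endothelial cells. Tlr13 had ratios of 0.46 in phagocytes and 0.94 in macrophages, against -1.44 in phagocytes of no narrower gate. Myd88 had ratios of 0.55 in Schwann cells and 0.27 in fibroblasts, against -1.27 in Cd209a dendritic cells and -1.05 in phagocytes of no narrower gate.

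The Tlr2 contrast between stromal cells and phagocytes rests on 743 UMIs in fibroblasts and 1561 in phagocytes of TLR9agonist_LW. The part that the mix of pooled mice, the depth per cell and the changed cluster mix play in it was not tested beyond the values given above.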

How the results depend on the processing

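Over 15 results and 9 alternative settings, 94 of 111 alternative values moved by less than the counting interval or the 1.5 times allowed for a count. The Tlr9 ratio in phagocytes and both shares of Tlr9 UMIs in phagocytes were among these under every alternative run, but their intervals are wide. The shares in WT_LW and TLR9agonist_LW were 93.8% and 87.5% as given. They were 83.3% and 74.4% with predicted doublets kept, and 90.6% and 93.8% with clusters in place of gates. The phagocyte ratio of Tlr9 was 1.29 (-0.69 to 3.51) with thinned cells, against 0.53. The Tlr9 ratio over all cells was 0.47 with each cell thinned to 1500 UMIs (-1.32 to 2.43), against -0.38. Scaling to the median gene gave 16 pathway genes higher and 2 lower, in place of 7 and 6, and the share of all genes under that scaling was not counted. Thinning turned Tlr3 in phagocytes from 0.70 to -0.98. Among 72 alternative values of the 9 other members, 58 kept within the interval, 13 moved and 1 turned, and the cause was not tested. With 1 library per group, no library could be left out. No paired analysis was possible because each group held 1 library. The Tlr9 values rest on 32 UMIs in each library.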

Other observations

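Neutrophils were too few in WT_LW to compare (38 cells, against 180 in TLR9agonist_LW), and 21.1% and 24.4% of them lay near the limit of the gate. In TLR9agonist_LW they held 66 of 220 Tlr6 UMIs (30%, 24.0 to 36.5) although they made up 1.52% of the cells, at 151 CPM (117 to 192), against 5.54 CPM in phagocytes. In WT_LW they held 4 Tlr6 UMIs, or 44.4 CPM (12.1 to 114). Their Tlr13 level was 178 CPM (16 UMIs) and 75.4 CPM (33 UMIs), and their Tlr4 level 55.5 CPM (5 UMIs) and 96.0 CPM (42 UMIs).

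Of the receptors that are not members, Tlr11 was counted mainly in type 1 dendritic cells, with 13 of 24 UMIs in WT_LW and 22 of 35 in TLR9agonist_LW, or 16.5 and 38.2 CPM. Tlr12 was at 2.27 and 2.26 CPM in phagocytes, and Tlr5 at 3.64 and 2.97 CPM in phagocytes and 2.37 and 2.24 CPM in fibroblasts. Predicted doublets held 4 and 7 further UMIs of Tlr9, and cells removed by the filter 2 and 0.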
